A study of Mus musculus with 3 samples.

Results

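Neurotrophins and their receptors were examined as 6 genes, Bdnf, Ntf3, Ntrk2, Ntrk3, Ngfr and Sort1, out of 52636 genes in the count table of RNA-Seq from FACS-purified tdTomato-positive hippocampal cells. They were taken by name, after Ensembl gene IDs were matched to GENCODE vM21 symbols, and all 6 were found. The cells came from male mice of postnatal day 28 to 32 on the C57BL/6J background, carrying 1 copy of Camk2a-Cre, a transgene that makes Cre recombinase under the Camk2a promoter, and 1 copy of Ai14, a reporter that makes the red fluorescent protein tdTomato after Cre recombination. Hippocampi of 2 to 4 mice were pooled for each of the 3 biological replicates, digested with papain, and live cells with red fluorescence were sorted. The sorted cells form the only group, so the values below are levels in these cells, and no change between conditions was measured.

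The study describes Cre of this line as specific to CA1 pyramidal neurons among hippocampal cells, and names the sorted cells accordingly. It also reports good correlation of their RNA with ribosome-bound RNA taken with the same Cre line. The sort itself separates cells by the reporter and not by hippocampal field. All 8 CA1 pyramidal markers named by the study were detected, which here means 1 or more counts per 1000000 assigned counts (CPM) in every one of the 3 libraries. Markers of dentate granule, CA2 and CA3 neurons were also detected, with 6 of 6, 6 of 6 and 5 of 5. Oligodendrocyte markers were detected for 8 of 8 genes, microglia markers for 6 of 6 and astrocyte markers for 6 of 7. Fewer were detected of the interneuron markers, 2 of 5, the oligodendrocyte precursor markers, 3 of 5, the endothelial markers, 2 of 5, and the mural markers, 3 of 5. Of nuclear protein-coding genes, 57.0% were detected. Detection does not give the level, for which TPM, a length-scaled level defined below, is used. The median marker had 242 TPM for CA1 pyramidal, 89.6 for dentate granule, 60.1 for CA2 and 26.9 for CA3 neurons. It had 60.9 TPM for oligodendrocytes, 19.6 for astrocytes and 8.72 for microglia. Markers differ in level between genes, and the share of each cell type was not tested. Assigned counts totalled 15833075 to 48159841 per library, so replicate 1 was the deepest by a factor of 3.04 over replicate 3.

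Neurotrophins are secreted growth factors made as longer precursors, which proteases such as furin cut to release the mature factor. The mature factors bind Trk receptor tyrosine kinases, with BDNF preferring TrkB, the product of Ntrk2, and neurotrophin 3, the product of Ntf3, preferring TrkC, the product of Ntrk3. The uncut precursors bind a complex of the p75 receptor, the product of Ngfr, with sortilin, the product of Sort1, and sortilin also sorts BDNF inside the cell. In the hippocampus BDNF and TrkB are known for their part in long-term potentiation and in dendrite and spine growth.

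Stretches of the reading frames of the ligands and Trk receptors are shown here. They carry the precursor cleavage, part of the kinase activation loop and the point at which receptor isoforms part. A count per gene resolves none of these. They were read from the GENCODE vM21 transcripts on GRCm38. In the ligands, the capitals mark the only match in each frame to the furin-type motif, which is arginine, any residue, lysine or arginine, and arginine. The Bdnf stretch (transcript Bdnf-205, chr2:109723757-109723816, plus strand) and the Ntf3 stretch (transcript Ntf3-201, chr6:126102062-126102121, minus strand) each lie in a single exon.
Bdnf: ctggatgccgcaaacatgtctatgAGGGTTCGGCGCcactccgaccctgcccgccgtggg
Ntf3: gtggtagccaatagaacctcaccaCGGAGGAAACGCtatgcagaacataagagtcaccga

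After this motif 119 residues remain in each of the 2 ligands. The frames were identical at 57.3% of 117 aligned residues after the motif and at 31.4% of 118 aligned residues up to its end, so the mature factors are the more alike part.

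In the receptors, the capitals mark a motif within the kinase activation loop. The motif, a tyrosine followed by 3 residues and a pair of tyrosines, was found once in each frame. The Ntrk2 stretch (transcript Ntrk2-201, chr13:59060421-59126450, plus strand) and the Ntrk3 stretch (transcript Ntrk3-201, chr7:78198934-78247196, minus strand) each cross an exon junction, so the genomic spans include an intron.
Ntrk2: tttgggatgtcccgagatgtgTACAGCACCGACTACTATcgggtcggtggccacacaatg
Ntrk3: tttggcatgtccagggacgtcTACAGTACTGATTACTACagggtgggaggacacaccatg

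The frames of Ntrk2-201 and Ntrk3-201 hold 821 and 825 residues and were identical at 58.5% of 796 aligned residues. Ntrk2 also makes a shorter mRNA whose product lacks the kinase and is known to be abundant in astrocytes. Its frame (transcript Ntrk2-204) shares the first 1394 coding bases with the full-length frame (Ntrk2-201) and ends 37 bases later. The stretches shown are coding bases 1365 to 1431 of each frame, on the plus strand of chromosome 13. They lie at chr13:58878234-58932060 for Ntrk2-204 and at chr13:58878234-58985839 for Ntrk2-201, and both spans include an intron. The capitals mark the bases after the split.
Ntrk2-204: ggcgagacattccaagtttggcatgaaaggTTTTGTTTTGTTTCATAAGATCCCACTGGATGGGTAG
Ntrk2-201: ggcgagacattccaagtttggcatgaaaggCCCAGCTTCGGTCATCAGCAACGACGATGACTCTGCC

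The counts of Ntrk2 below sum over these mRNAs. How much of the Ntrk2 signal comes from the kinase form was not tested.

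To compare genes, counts were divided by the merged exon length of each gene and scaled to a sum of 1000000 over nuclear protein-coding genes, which is called TPM here. Values are given as the mean ± SD of 3 replicates, and 95% intervals of single libraries are exact Poisson intervals that cover counting error only. Of the 6 genes, 5 were detected by the CPM rule and Ngfr was not. The rule was met by 30.3% of all genes and by 57.0% of the 21883 nuclear protein-coding genes. The median over the 6 genes was 83.1 TPM, against 37.6 TPM over the 12471 nuclear protein-coding genes that passed.

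Bdnf (ENSMUSG00000048482.14) lies on chromosome 2 from 109674700 to 109727007 on the plus strand. It had 4075, 2302 and 1483 counts, or 78.6, 83.8 and 92.5 TPM, in replicates 1, 2 and 3. The level was 85.0 ± 7.01 TPM (SD, n = 3), which ranked Bdnf 2977 of 21883 nuclear protein-coding genes. GENCODE vM21 gives 11 Bdnf transcripts from several promoters, and the counts do not separate them. Of the exon bases of Bdnf, 14.4% lie under Gm45346, an antisense gene with 9, 6 and 4 counts, and the strand setting of the counting is not given in the sources used here.

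Bdnf is known as an activity-regulated gene, so the activity genes were set beside it. All 9 of them were detected, with 260 ± 37.0 TPM for Egr1, 249 ± 19.3 TPM for Arc, 193 ± 21.2 TPM for Nr4a1 and 154 ± 27.5 TPM for Junb (SD, n = 3). The sum over the 9 genes was 1083, 914 and 1115 TPM in replicates 1, 2 and 3. Bdnf and this sum were both highest in replicate 3, but their lowest libraries differed. The part of neuronal activity before or during dissociation in these levels was not tested.

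Ntf3 (ENSMUSG00000049107.13) lies on chromosome 6 from 126101412 to 126166910 on the minus strand. It had 694, 451 and 286 counts, or 48.6, 59.6 and 64.7 TPM, in replicates 1, 2 and 3. The level was 57.6 ± 8.24 TPM (SD, n = 3), at rank 4382. The interval of replicate 1, 45.0 to 52.3 TPM, lay below those of replicates 2 and 3, which ran from 54.2 to 65.3 TPM and from 57.4 to 72.6 TPM. Replicate 1 was thus the low one.

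In mice, Ntf3 is known to be expressed in dentate granule and CA2 neurons. The dentate granule markers had a median of 92.8, 88.1 and 89.5 TPM in replicates 1, 2 and 3, and the CA2 markers 63.8, 55.5 and 61.7 TPM. Both lists were highest in replicate 1, where Ntf3 was lowest. Fewer cells of a type and less RNA per cell cannot be told apart in sorted pools, and the part of these cells in the Ntf3 level was not tested.

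Ntf5, which encodes a further ligand of TrkB, was near the limit of detection. It had 8, 14 and 0 counts in replicates 1, 2 and 3, or 0.519 ± 0.613 TPM (SD, n = 3), and did not meet the CPM rule.

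Ntrk3, the gene of TrkC (ENSMUSG00000059146.12), lies on chromosome 7 from 78175959 to 78738012 on the minus strand. It had 25971, 15572 and 9325 counts, or 103, 117 and 120 TPM, in replicates 1, 2 and 3. The level was 113 ± 8.85 TPM (SD, n = 3), at rank 2128. Its merged exons span 30170 bp over 20 annotated transcripts, of which 6 are protein-coding, and the longest transcript has 19703 bp.

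Ntrk2, the gene of TrkB (ENSMUSG00000055254.15), lies on chromosome 13 from 58806569 to 59133970 on the plus strand. It had 12004, 7101 and 4276 counts, or 74.6, 83.3 and 85.9 TPM, in replicates 1, 2 and 3. The level was 81.3 ± 5.93 TPM (SD, n = 3), at rank 3107. Its merged exons span 19292 bp over 10 annotated transcripts, of which 7 are protein-coding, while the longest transcript has only 8744 bp.

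Astrocyte markers were also present in these libraries. Their summed level over 7 genes was 260, 162 and 327 TPM in replicates 1, 2 and 3, with Slc1a2 at 139 ± 40.5 TPM (SD, n = 3) and Aldh1l1 at 3.83 ± 0.923 TPM. The sum was lowest in replicate 2, where Ntrk2 was not lowest. The part of astrocyte RNA in the Ntrk2 level was not tested.

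**Figure D1:**
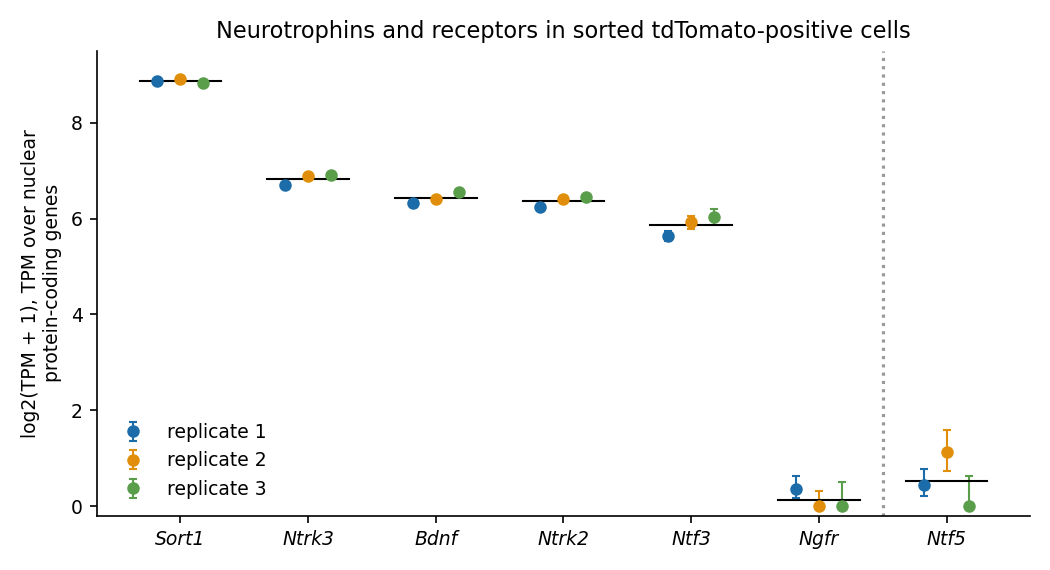
Level of each gene as log2(TPM + 1), with 1 point per replicate, 95% Poisson intervals of the count as error bars and the mean as a black line. To the left of the dotted line stand the 6 genes of the report in order of their level, and to its right Ntf5. Sort1 stands at the top with 466 TPM, 4 genes lie between 57.6 and 113 TPM, and the means of Ngfr and Ntf5 lie below 1 TPM.

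Ngfr, the gene of the p75 receptor (ENSMUSG00000000120.6), lies on chromosome 11 from 95568818 to 95587735 on the minus strand. It had 8, 0 and 0 counts in replicates 1, 2 and 3. The 8 counts correspond to 0.278 TPM, with an interval of 0.120 to 0.549 TPM, and the exact intervals for 0 counts reach 0.242 TPM in replicate 2 and 0.415 TPM in replicate 3. All 8 counts thus fell in the deepest library, and the part of depth in this was not tested. Among other cell types, summed markers of mural cells were 16.0, 20.7 and 76.3 TPM and of endothelial cells 9.12, 21.4 and 76.0 TPM in replicates 1, 2 and 3, lowest in the library with Ngfr counts. Summed markers of oligodendrocyte precursors were 22.2, 10.5 and 19.4 TPM and of interneurons 84.3, 67.6 and 90.7 TPM. The precursor sum was highest in the library with Ngfr counts. The median of the precursor markers was highest in replicate 3 instead, with 1.94, 1.86 and 2.27 TPM in replicates 1, 2 and 3. The interneuron marker Slc32a1 had counts only in replicate 1, with 19, 0 and 0. The part of any of these cells in the Ngfr counts was not tested.

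Sort1, the gene of sortilin (ENSMUSG00000068747.14), lies on chromosome 3 from 108284082 to 108361511 on the plus strand. It had 29457, 15989 and 8835 counts, or 467, 478 and 453 TPM, in replicates 1, 2 and 3. The level was 466 ± 12.9 TPM (SD, n = 3), and 98.9% of nuclear protein-coding genes had a lower mean, at rank 251. With merged exon lengths the remaining 5 genes together had 305, 344 and 363 TPM in these libraries, below Sort1 in each. By raw counts Sort1 had 0.689, 0.629 and 0.575 times their sum, and with the longest transcript 1.05, 0.956 and 0.860 times, so this held with merged exons only. With the mean protein-coding transcript and the longest coding part Sort1 was also below the sum in all 3 libraries. Of its exon bases, 4.47% lie under the antisense gene Gm12523, which had 18, 5 and 4 counts.

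By mean TPM the order was Sort1, Ntrk3, Bdnf, Ntrk2, Ntf3 and Ngfr, and each of the 5 neighbouring pairs kept its order in all 3 libraries. Sort1 was 4.12-fold above Ntrk3 by counts per kilobase, and between 3.78-fold and 4.52-fold in single libraries. Ntrk3 was 1.33-fold above Bdnf, and Ntrk2 was 1.42-fold above Ntf3. With merged exon lengths Bdnf and Ntrk2 did not differ beyond their spread, since their 3 values overlapped and Bdnf was 1.04-fold higher. Values of the other neighbours did not overlap. The exact sign-flip permutation test over 3 libraries, two-sided, gave p = 0.25 for each of the 4 pairs without Ngfr, before and after adjustment over the 4, and this is the smallest p that 3 libraries allow.

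The order between genes with very different gene models moved with the length that counts were divided by. Ntrk2 had 0.718 times the level of Ntrk3 per kilobase of merged exons. By raw counts the ratio was 0.459, and per kilobase of the longest coding part it was 0.483. Per kilobase of the longest transcript it was 1.03, with 1.04, 1.03 and 1.03 in replicates 1, 2 and 3, so the direction turned in every library. Which of the Trk receptor genes had more mRNA molecules was therefore not settled by counts per gene.

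Bdnf was 1.48-fold above Ntf3 per kilobase of merged exons, with 1.62, 1.41 and 1.43 in replicates 1, 2 and 3. The ratio was 1.87 with the longest transcript, 5.04 with the longest coding part and 5.38 by raw counts. Bdnf was the higher ligand under each of these lengths. Bdnf over Ntrk2 turned below 1 under every other length, with 0.690 for the longest transcript, 0.956 for the longest coding part, 0.378 for the mean protein-coding transcript and 0.337 by raw counts. Sort1 stayed above Ntrk2 under all 5 lengths, by 1.46-fold to 5.74-fold. Against Ntrk3, Sort1 was 2.98-fold higher with the longest transcript, and by raw counts it had 1.13, 1.03 and 0.947 times the level of Ntrk3 in replicates 1, 2 and 3. With the mean length of protein-coding transcripts the ratio was 0.758, so the place of Sort1 above Ntrk3 also rested on the length.

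**Figure D2:**
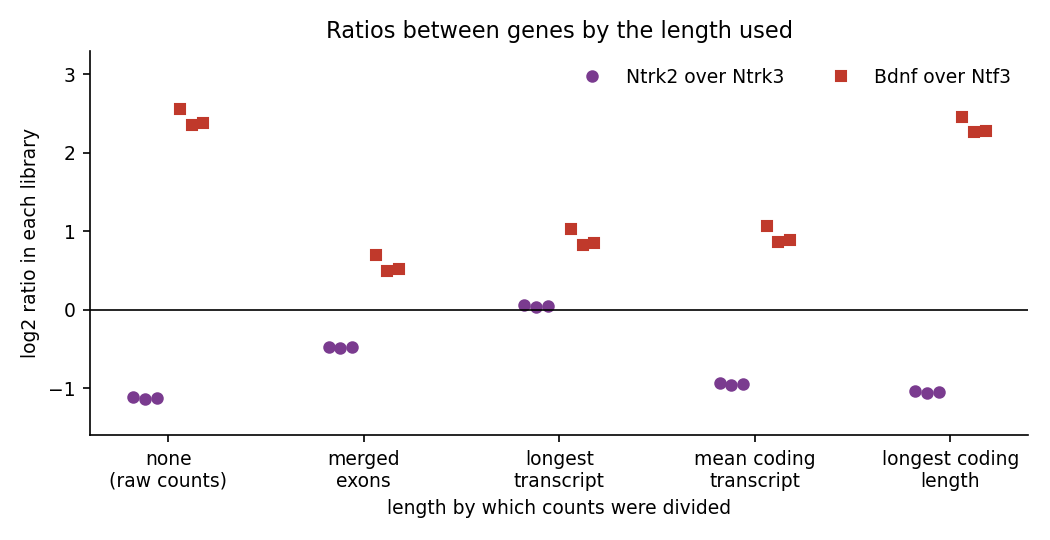
The log2 ratio of Ntrk2 over Ntrk3 (circles) and of Bdnf over Ntf3 (squares) in each of the 3 libraries, by the length that counts were divided by, with replicates 1 to 3 from left to right. The Bdnf ratio lies above 0 throughout, while the Ntrk2 ratio lies at -1.12 for raw counts and at 0.05 with the longest transcript.

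Normalized counts, scaled by median-of-ratios size factors, had a coefficient of variation of 4.45% for Bdnf, 4.58% for Ntrk2, 5.24% for Ntrk3, 6.00% for Sort1 and 11.2% for Ntf3. The median over the 12471 nuclear protein-coding genes that passed, which include genes at other abundances, was 8.75%. At their mean counts, counting error alone gives 2.04% for Bdnf and 4.73% for Ntf3, and separate pools of mice are known to vary beyond it. The biological coefficient of variation from edgeR, fitted over 18714 genes, had a median of 0.0876 over the 5 genes and 0.141 over all genes fitted. The latter includes genes at other abundances. Against the trend fitted at its own abundance, Bdnf had 0.0809 with a trend of 0.0863, and Ntrk2 0.0845 with 0.0898. Ntrk3 had 0.0876 with 0.0924, Sort1 0.0887 with 0.0926 and Ntf3 0.126 with 0.129. Moderation draws these values toward the trend, so their closeness to it is not a result. Without moderation the values were 0.0367 for Bdnf, 0.0440 for Ntrk2, 0.0510 for Ntrk3, 0.0613 for Sort1 and 0.105 for Ntf3. Each of these was below the trend given for its gene. The median over all genes fitted was also lower without moderation, at 0.0893.

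The ratio of Ntrk3 to Ntrk2 had the smallest SD of the 10 ratios between the 5 detected genes. Its log2 value was 0.468, 0.488 and 0.480 in replicates 1, 2 and 3, with an SD of 0.00979. Counting error alone gives standard errors of 0.0159, 0.0207 and 0.0266 in these libraries. The ratio was picked as the one with the smallest SD, so its small spread is a description. Both receptor genes were lowest in replicate 1, at -0.09 for Ntrk3 and -0.08 for Ntrk2 from their mean on the log2 scale of normalized counts. The largest SD, 0.23, was that of Sort1 to Ntf3, with 3.26, 3.01 and 2.81 on the log2 scale. Normalized Sort1 was low in replicate 3, where Bdnf and Ntf3 were highest.

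**Figure D3:**
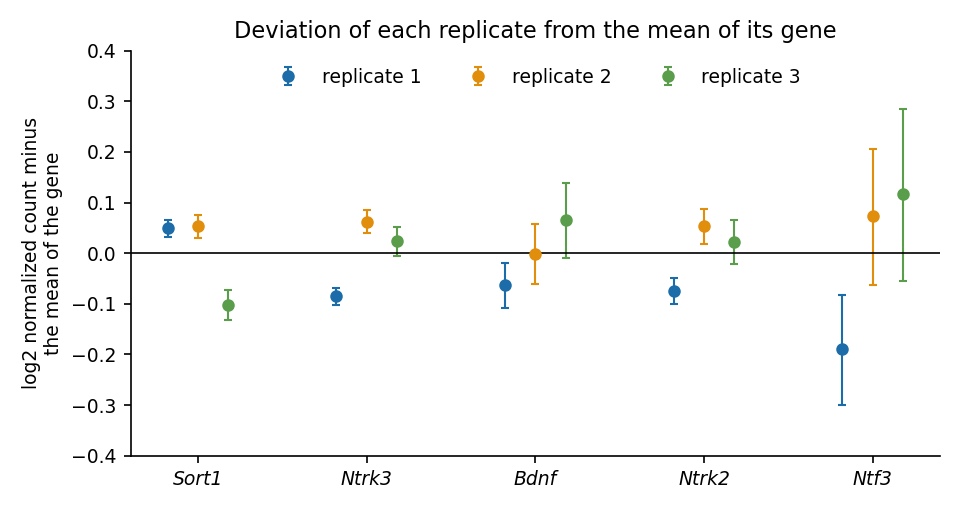
Deviation of each replicate from the mean of its gene, on the log2 scale of normalized counts with a pseudocount of 1, with 95% Poisson intervals of the counts. Ntrk3 and Ntrk2 are both lowest in replicate 1, Ntf3 is lowest in replicate 1 at -0.19, and Sort1 is lowest in replicate 3 at -0.10.

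With 3 libraries, many genes share a pattern by the arrangement of few values. By the largest difference of centred log2 normalized counts over the 3 libraries, the genes nearest to Bdnf were Nmd3 and Plekha3. Those nearest to Ntrk2 were Acbd6 and Trim2, to Ntrk3 Rad52 and Abracl, to Ntf3 Pcdhgb4 and Ndufab1, and to Sort1 Zfp335 and Rab5b. A difference of at most 0.1 from Bdnf was found for 2581 of 12471 candidate genes, from Ntrk2 for 2294, from Ntrk3 for 2045, from Sort1 for 3732 and from Ntf3 for 602. The nearest genes are therefore given as a description only.

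Of 57 genes in 4 groups, 51 were detected, or 89.5%, against the 57.0% of nuclear protein-coding genes given above, and their median was 39.7 TPM. With 1 group of samples no change could be tested for them.

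Among the genes of ligand processing and release, 11 of 16 passed. Cpe, which encodes carboxypeptidase E, a sorting receptor for the BDNF precursor, had 1729 ± 73.5 TPM (SD, n = 3). Hap1, which encodes a huntingtin-associated protein of BDNF transport, had 289 ± 27.2 TPM. Pcsk2, a prohormone convertase gene, had 147 ± 4.81 TPM, and Serpini1, which encodes the protease inhibitor neuroserpin, had 75.3 ± 7.92 TPM. Mmp3 and Mmp7, metalloprotease genes, had 0 counts in each library.

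All 9 co-receptor and Vps10p family genes passed, with a median of 217 TPM. Rtn4r, the gene of the Nogo receptor that pairs with p75, had 353 ± 31.9 TPM, and Lingo1, a gene of the same receptor complex, had 312 ± 5.81 TPM (SD, n = 3). Kidins220, a scaffold of Trk receptors, had 229 ± 1.69 TPM, and Sorl1, a relative of sortilin, had 227 ± 7.93 TPM. The genes named are the 4 highest of this group, and the lowest gene of the group had 5.25 TPM. Rtn4r and Lingo1, of the Nogo receptor complex, were thus abundant while Ngfr itself had 8 counts in all.

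Of the Trk adaptors and effectors, 19 of 20 passed, with a median of 29.5 TPM. Grb2, an adaptor to Ras, had 204 ± 1.75 TPM, and Crk, also an adaptor, had 136 ± 8.91 TPM (SD, n = 3). Sh2b1 had 116 ± 5.74 TPM and Shc2, an adaptor of the Shc family, had 99.2 ± 4.36 TPM. All 12 partners and proteases of p75 passed, with a median of 55.1 TPM. Maged1, which encodes the p75 partner NRAGE, had 643 ± 33.8 TPM, Bex3 539 ± 19.1 TPM, Arhgdia 320 ± 31.6 TPM and Irak1, a kinase, 98.2 ± 3.92 TPM.

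Other neurotrophic factors and receptors were detected for 15 of 24 genes, with a median of 22.0 TPM. Vgf, a BDNF-responsive secreted protein gene, had 287 ± 26.8 TPM and Nenf, which encodes neudesin, 225 ± 17.1 TPM (SD, n = 3). Ptn, which encodes pleiotrophin, had 138 ± 13.1 TPM and Manf 48.1 ± 1.67 TPM. Of the coreceptors for the GDNF family, Gfra4 had 163 ± 6.17 TPM and Gfra2 had 89.7 ± 3.43 TPM, while Ret, their signalling kinase, had 32, 7 and 16 counts and Gdnf had 9, 7 and 0 counts in replicates 1, 2 and 3.

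**Figure D4:**
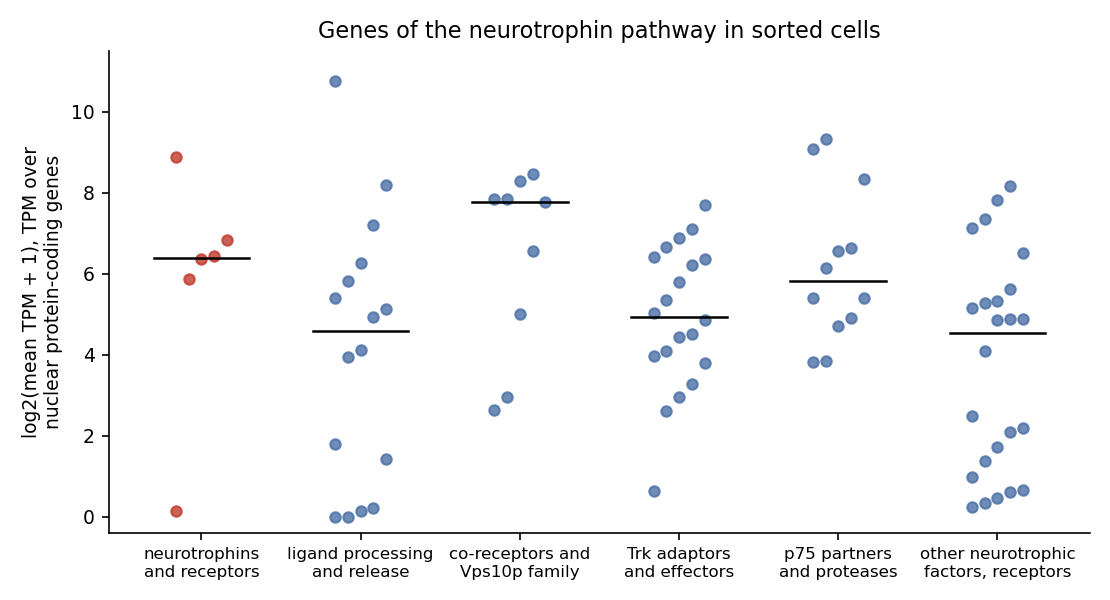
Mean TPM of single genes on the log2(TPM + 1) scale, grouped as the 6 neurotrophin and receptor genes and 5 groups of related genes, with black lines at the median of each group. The co-receptor group has the highest median, at 217 TPM, and the 6 genes of the report have a median of 83.1 TPM with Ngfr near 0.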

How the data were processed

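FACS RNA-Seq was available for 3 biological replicates of 1 group. The deposited values are raw counts per gene, which the authors made with STAR and featureCounts on GRCm38 (mm10) per the labels, with no versions. The annotation, strand setting, multimapping rule and read or fragment counting of these libraries are not given in the sources used here. Gene coordinates of the 6 genes in the table equal those of GENCODE vM21, which named 52489 of 52636 genes. The 6 genes and all gene lists were chosen with earlier results of these data known.

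TPM was computed from counts and the deposited merged exon lengths over nuclear protein-coding genes, since Gm23935, a short noncoding feature, took 32.7%, 48.3% and 40.5% of the TPM over all genes in replicates 1, 2 and 3. CPM used the total assigned counts, and a gene was detected where its CPM was 1 or more in every library. Size factors were 1.78, 0.963 and 0.592. Dispersions were estimated with edgeR 4.0.16 (TMM, intercept only) in R 4.3.3, with DESeq2 1.42.0 as the alternative. The dispersion of single genes without moderation, and the ratio of Sort1 to the sum of the other genes under other lengths, were added after seeing the data. The dispersion script was tested on simulated data. Identities used Biopython 1.88 alignments, and remaining steps matplotlib 3.10.9, pandas 2.3.3, scipy 1.17.1 and numpy 2.4.6 in Python 3.11.15. Lengths other than merged exons came from GENCODE vM21.

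Named genes were the 6 genes, Ntf5, the 4 highest of each pathway group and of the activity genes, with any at 0 counts, the 6 highest other neurotrophic factors and receptors, and the 2 nearest genes by pattern. Ret, Gdnf, Slc1a2, Aldh1l1, Slc32a1 and the 3 Gm genes were named after their values were seen. The order test was planned for 5 pairs, and the pair with Ngfr was left out because of its 0 counts. The CA1 marker Nov was matched to Ccn3 through RefSeq synonyms. 0 columns of samples were left out. Some related genes are not reported here.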

Additional observations from a re-analysis of the deposited data

How the results depend on the processing

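Of 76 alternatives to 12 results, 54 left the value within its spread or a count within 1.5 times, 21 moved it further and 1 reversed it. No paired analysis was possible because the series holds 1 group. With TPM over all genes the levels were 26.5 for Bdnf, 17.8 for Ntf3, 25.4 for Ntrk2, 35.3 for Ntrk3 and 146 for Sort1, and as RPKM with TMM factors 14.4, 9.72, 13.7, 19.2 and 78.9, which are other scales. The log2 ratio of Ntrk2 over Ntrk3 was -0.48 with merged exons and -1.12 with raw counts, -0.95 with the mean protein-coding transcript, -1.05 with the longest coding length and 0.048, reversed, with the longest transcript. That of Bdnf over Ntf3 was 0.57 with merged exons and 2.43, 0.94, 2.33 and 0.90 in the same order of lengths. These differences follow from the lengths alone. Of the 5 neighbouring pairs, 3 kept their order with raw counts, 3 with the mean protein-coding transcript and 3 with the longest coding length. The median biological coefficient of variation over the 5 genes was 0.0510 without moderation, against 0.0893 over all genes fitted, which include genes at other abundances. The lengths of coding parts and mean transcripts and the unmoderated dispersion were chosen after seeing the data. Leaving out any replicate moved none of these results beyond the limits above. For Ngfr this says little, since its SD of 0.161 TPM exceeded its mean of 0.0928 TPM. Without replicate 1 the Ngfr level was 0 TPM. Ngfr and Ntf5 had few counts, so single counts decide their values, and the part of depth in this was not tested.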
